A study of Gallus gallus with 9 samples.

Results

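Thymic transcript levels of broiler chicks given lipopolysaccharide (LPS) were compared with those of chicks on the basic diet (CON). All chicks were of the ROSS 308 breed, a fast-growing meat line, and were sampled on post natal day 21. Each group holds 3 libraries, so 6 of the 9 libraries of the series were compared. The remaining libraries come from chicks given lipopolysaccharide and genistein (GEN) and serve here only to estimate the spread and as an outside reference. The labels give no dose, route or interval of the lipopolysaccharide treatment and do not say whether a library is 1 chick or a pool, so the p-values reflect only the variation among these libraries, some of which may be technical. Expression levels are in FPKM, a fragment number divided by gene length and library size. The genes described are those with at least 1 FPKM in at least 3 of the 6 libraries, 13072 of 25016. Of these, 46 passed through the LPS libraries alone and 8 through the CON libraries alone.

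The thymus is the organ in which T cells mature, and most of its RNA comes from developing thymocytes held in a network of epithelial cells. Lipopolysaccharide is a component of the outer membrane of Gram-negative bacteria that is sensed by Toll-like receptors on innate immune cells and starts the release of inflammatory cytokines. In mice, systemic lipopolysaccharide is known to shrink the thymus through the loss of immature cortical thymocytes, in part by way of glucocorticoids. No gene names accompany the identifiers in the files, and the reference table at hand pairs 0 of the 25016 identifiers with a symbol. Toll-like receptor genes, cytokines and thymocyte markers could therefore not be looked up, and the labelled tissue could not be checked against its markers. Genes are given by identifier or by coordinates of GRCg6a, which the submitters' processing notes name as the genome build.

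CON 3 differed from the other 5 libraries over most of the transcriptome. Between CON 3 and any other library, 3690 to 3931 of the 13072 genes differed by more than 2-fold on the log2(FPKM + 1) scale, and the median absolute log2 difference per gene was 0.59 to 0.62. Between CON 1 and CON 2 that median was 0.15, with 302 genes over 2-fold. Between pairs of LPS libraries it was 0.13 to 0.20, with 231 to 484 genes. The 6 pairs of an LPS library with CON 1 or CON 2 gave 0.15 to 0.18, with 273 to 503 genes. A typical gene was thus about as far apart between the treatments as within them. CON 3 stood apart in genes of some lengths and in abundant genes. Relative to the mean of the GEN libraries, genes of 300 to 1000 bases lay 0.64 higher in CON 3 (median log2 difference) and 0.06 to 0.10 higher in the other 5, and genes of 4000 bases or more lay at -0.35 in CON 3 and at -0.05 to -0.01 in the others. Genes under 300 bases were at -0.24 in CON 3, within the -0.40 to 0.04 of the others. Genes of 100 FPKM or more in GEN lay 0.62 higher in CON 3 and 0.05 to 0.21 higher in the others. Gene fragments numbered 20469730 in CON 3 and 22225421 to 25863282 in the others. The library size used for FPKM was 0.767 times these fragments in CON 3 and 1.01 to 1.06 times in the others. This raises the FPKM of all CON 3 genes relative to the other libraries, and the differences by length and abundance above include it. Effects are therefore given with all libraries and again without CON 3.

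**Figure D1:**
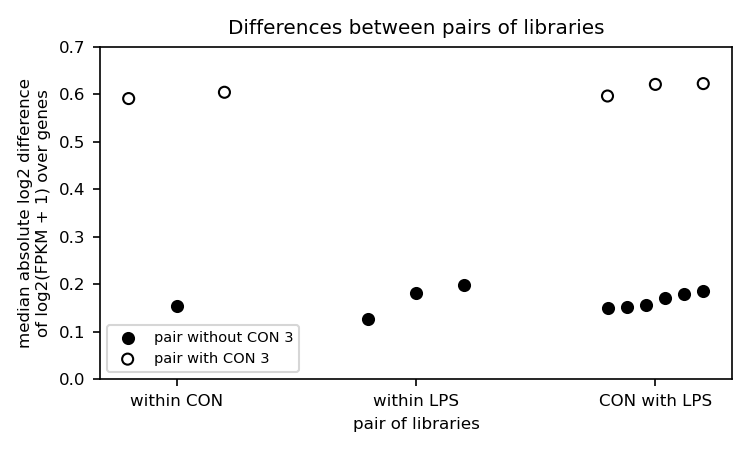
Median absolute difference in log2(FPKM + 1) over 13072 genes (vertical axis) for each of the 15 pairs of libraries, by kind of pair. Filled points, pairs without CON 3, lie between 0.13 and 0.20 within and between groups, and open points, pairs with CON 3, lie between 0.59 and 0.62.

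The question here is which transcripts of the thymus differ between chicks given lipopolysaccharide and chicks on the basic diet. In RNA of whole thymus, fewer cells of a type and less RNA per cell cannot be told apart. With all libraries, 0% of the 13072 genes were called at a limma adjusted p under 0.05, and without CON 3 the share was again 0%. The lowest limma adjusted p was 0.633 with all libraries and 0.512 without CON 3. At an unadjusted p under 0.05 there were 591 genes with all libraries (4.52%), 319 higher (2.44%) and 272 lower (2.08%) in LPS. Without CON 3 there were 769 (5.88%), 354 higher (2.71%) and 415 lower (3.17%). The filter still counted all 6 libraries there. A gene at 1 FPKM in the 3 LPS libraries alone could enter, but a gene in CON 1 and CON 2 alone could not. With limma-voom, fitted to fragments recovered from the FPKM values, 0 genes were called in either fit, and 587 and 713 genes were at an unadjusted p under 0.05. The balance of directions depended on the scaling of the libraries. When libraries were scaled by their summed fragments, 502 genes were higher and 102 lower with all libraries, and 491 and 236 without CON 3, and limma-voom gave 495 and 92, and 472 and 241. Quantile normalization gave 222 higher and 337 lower with all libraries. The scaling by summed fragments shifted the median fold change (log2) over all genes from -0.00 to 0.16 with all libraries and from -0.01 to 0.03 without CON 3, and voom shifted it to 0.18 and 0.04.

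Leaving out CON 3 narrowed the fold changes. With all libraries the middle 90% of genes lay between -0.53 and 0.72 (log2 fold change), and 178 genes were more than 2-fold higher and 53 more than 2-fold lower in LPS. Without CON 3 the middle 90% lay between -0.30 and 0.42, with 73 genes over 2-fold higher and 27 lower. Standard errors of the log2 fold changes had a median of 0.23 with all libraries, against 0.15 without CON 3. The median 95% interval of a gene then reached 1.44-fold and 1.27-fold to either side of its estimate. For 4327 genes (33.1%) the sign of the fold change differed between the fits. Both fits put 181 genes at an unadjusted p under 0.05 as higher and 176 as lower, and 0 with opposite signs. These 357 genes are 60.4% of the list with all libraries and 46.4% of the list without CON 3. The fits share 5 of the 6 libraries compared, so this overlap is a description of the lists.

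**Figure D2:**
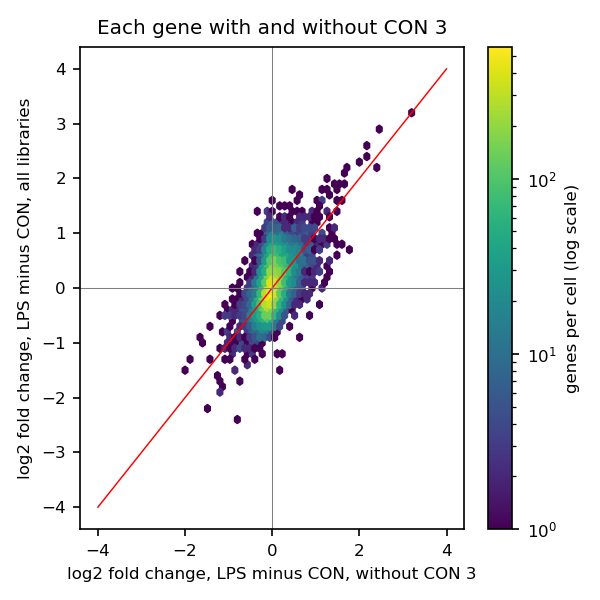
Log2 fold change of LPS minus CON for each of 13072 genes without CON 3 (horizontal axis) and with all libraries (vertical axis), coloured by the number of genes per cell on a log scale. The cloud is steeper than the red line of equal values, with the middle 90% of genes between -0.30 and 0.42 without CON 3 and between -0.53 and 0.72 with it.

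For 1617 genes (12.4%) every LPS library lay on one side of every CON library. LPS was above CON for 715 (5.47%) and below for 902 (6.9%). Scaling by summed fragments turned this balance to 1217 higher and 347 lower, while quantile normalization gave 512 and 884. Without CON 3, 2909 genes (22.3%) did not overlap, 1261 higher (9.65%) and 1648 lower (12.6%), and scaling by summed fragments made this 1727 and 1038. For 3 against 3 libraries, any gene whose groups do not overlap has an exact two-sided permutation p of 0.1. A share of that order can therefore arise without a difference between the groups, and these counts are a description. A count with fewer libraries is larger because fewer libraries have to be ordered, and the share that can arise so is larger too.

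The following 4 genes, 2 in each direction, had the lowest p without CON 3 among Ensembl genes chosen by a rule. It asked for no overlapping gene model, at least 10 fragments in at least 3 libraries, and groups that did not overlap. Overlap of groups was judged on the FPKM values as deposited, with CON 3 included. They were picked for their difference, so their values are a description. ENSGALG00000008014 on chromosome 20 (13708222 to 13709555, minus strand) measured 10.4, 10.2 and 8.26 FPKM in CON 1 to 3 and 19.4, 15.4 and 18.7 FPKM in LPS 1 to 3. Every LPS library was above every CON library, with CON 3 the lowest of the 6. Means were 9.63 ± 1.19 FPKM in CON and 17.9 ± 2.11 in LPS (SD, n = 3 each), a ratio of 1.85. ENSGALG00000033129 on chromosome 3 (25092240 to 25094448, minus strand) measured 49.6, 50.9 and 46.4 FPKM in CON and 65.6, 78.0 and 73.7 FPKM in LPS. The CON libraries lay close together and all below the LPS libraries, among which LPS 1 was the lowest. The ratio of means was 1.48.

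ENSGALG00000010079 on chromosome 21 (6729868 to 6749872, plus strand) measured 149.7, 152.3 and 130.9 FPKM in CON and 118.0, 111.1 and 115.6 FPKM in LPS. On the deposited scale CON 3 lay between the other CON libraries and the LPS libraries, and the groups did not overlap. Scaled by summed fragments they overlap, as CON 3 (5608 of 20469730 fragments) is then the lowest of the 6 libraries. LPS 1 to 3 had 8615 of 25863282, 7186 of 22440811 and 7982 of 23825756. The ratio of means was 0.796, and 0.761 without CON 3. ENSGALG00000011646 on chromosome 5 (51984130 to 51996689, plus strand) measured 32.1, 34.7 and 36.2 FPKM in CON and 24.3, 20.9 and 23.4 FPKM in LPS. All LPS libraries were lower, at a ratio of means of 0.665, and CON 3 was the highest. The log2 fold changes without CON 3 were 0.73 (SE 0.11) for ENSGALG00000008014, 0.51 (SE 0.08) for ENSGALG00000033129, -0.39 (SE 0.06) for ENSGALG00000010079 and -0.53 (SE 0.09) for ENSGALG00000011646, each with a limma adjusted p of 0.512. With all libraries they were 0.83, 0.55, -0.32 and -0.57, each with a limma adjusted p of 0.633. For ENSGALG00000010079 the value with all libraries was -0.11 under quantile normalization and -0.14 with either scaling by summed fragments or voom. Over every setting tried the limma adjusted p of the 4 genes stayed between 0.0596 and 1.0. None of the 4 differences thus passed the test across all genes.

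**Figure D3:**
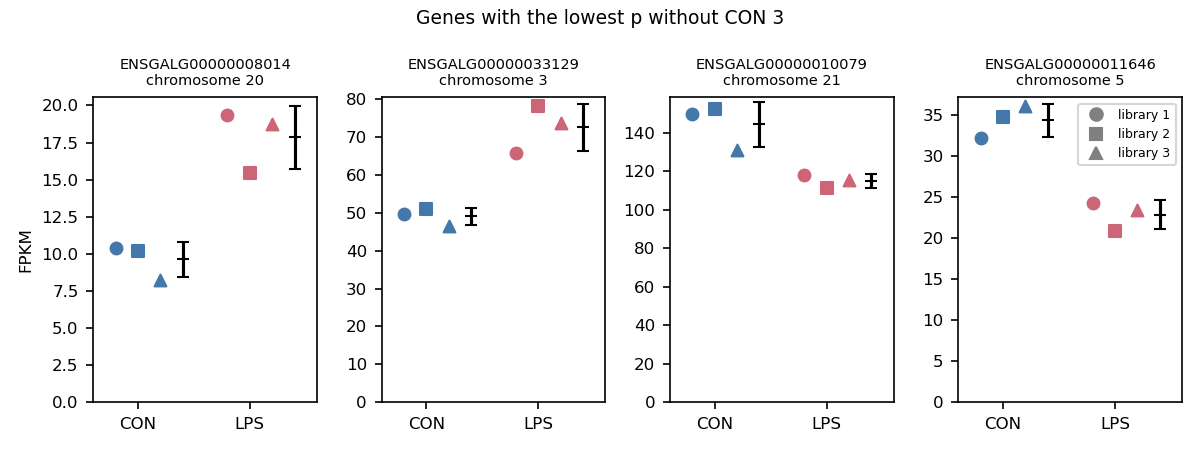
FPKM (vertical axes, from 0) of the 4 genes with the lowest p without CON 3 in each CON and LPS library. Point shapes give the replicate number and bars the mean ± SD of 3 libraries. In each panel the CON and LPS points do not overlap, as the choice of genes on this deposited scale required.

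CON 3 decided the direction or the size for other genes. Of the 13072 genes, 22 had an unadjusted limma p under 0.001 without CON 3 and at least 10 fragments in at least 3 libraries. None of them passed after adjustment, as the lowest limma adjusted p without CON 3 was 0.512. For 4 of the 22, CON 3 lay within or beyond the LPS range. Over all 13072 genes, 2909 did not overlap without CON 3, and 1617 of these still did not with it. A separation lost through CON 3 is thus not particular to the 22. These 4 overlap another gene model and were chosen after their values were seen. One on chromosome 5 (23632981 to 23671034) measured 48.9, 50.1 and 10.8 FPKM in CON and 36.8, 34.2 and 35.1 FPKM in LPS. LPS was below CON 1 and CON 2 and above CON 3, so the log2 fold change was -0.48 without CON 3 and 0.22 with it. Another on chromosome 27 (2563991 to 2604129) measured 3.19, 4.25 and 0.148 FPKM in CON and 0.218, 1.01 and 0.461 FPKM in LPS. Here CON 3 lay below the LPS libraries, while CON 1 and CON 2 were above all of them. Its log2 fold change was -1.62 without CON 3 and -0.94 with it. One more, also on chromosome 5 (178109 to 184568), measured 12.7, 14.7 and 119.7 FPKM in CON and 31.2, 26.3 and 19.9 FPKM in LPS. With CON 3 its log2 fold change was -0.16, and without it 0.85.

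Large differences were few. In both fits 32 genes (0.245%) were over 2-fold apart with groups that did not overlap and at least 10 fragments in at least 3 libraries, 23 higher and 9 lower in LPS. They lie on 13 nuclear chromosomes and the mitochondrial genome. Genes that passed the filter through the LPS or the CON libraries alone were not set apart here. The 32 were counted on the deposited scale and not recounted under other scalings. Of the 32, 3 were predicted by the submitters (9.38%, against 3.40% of all genes tested), 7 are shorter than 300 bases (21.9%, against 3.40%) and 9 overlap another gene model (28.1%, against 26.6%). The median level of the 23 higher genes was 11.2 FPKM in LPS (mean of 3 libraries, range over genes 2.65 to 99.7), and the 9 lower genes had a median of 14.1 FPKM in CON (2.29 to 27.1). The median gene tested had 11.7 FPKM over the 6 libraries. For 14 of the 23 higher genes LPS 1 was the highest library, LPS 3 for 5 and LPS 2 for 4.

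The 3 genes with the largest log2 fold change without CON 3 in each direction among the 32 are given by position. These were chosen after their values were seen. On chromosome Z (9164659 to 9166088) a gene measured 9.27, 5.45 and 8.05 FPKM in CON and 212.0, 48.8 and 38.4 FPKM in LPS. All LPS libraries were above CON, but LPS 1 was several times higher than LPS 2 and LPS 3, and the SD of 97.3 FPKM was close to the LPS mean of 99.7. Its log2 fold change without CON 3 was 3.20 (SE 0.74), with a limma adjusted p of 0.617. A gene on chromosome 15 (9123125 to 9128759) measured 8.39, 3.42 and 10.4 FPKM in CON and 27.1, 48.6 and 29.8 FPKM in LPS. LPS 2 was the highest here, while CON 2 was the lowest. A predicted gene on chromosome 20 (5170329 to 5171174) measured 5.26, 15.0 and 3.88 FPKM in CON and 56.3, 38.8 and 44.4 FPKM in LPS. CON 2 was the highest CON library, and without CON 2 this gene passed with a limma adjusted p of 0.0248, while its limma adjusted p was 0.633 with all libraries and 0.512 without CON 3, and over all settings lay between 0.0248 and 0.901.

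Among the genes lower in LPS, a pair of neighbours on chromosome 2, 59592 bases apart, shared the order of the LPS libraries. The first (110008520 to 110024894, predicted by the submitters) measured 4.18, 3.79 and 8.28 FPKM in CON and 3.08, 0.234 and 0.714 FPKM in LPS. The second (110084486 to 110087007) measured 12.3, 12.8 and 50.5 FPKM in CON and 10.5, 0.443 and 5.58 FPKM in LPS. In both, LPS 2 was the lowest library and LPS 1 was close to CON 1 and CON 2, and CON 3 was the highest. Their log2 fold changes without CON 3 were -1.28 (SE 0.44) and -1.50 (SE 0.72), with limma adjusted p of 0.793 and 0.885. A predicted gene on chromosome 3 (10561160 to 10565267) measured 32.3, 28.4 and 20.7 FPKM in CON and 4.20, 14.6 and 17.7 FPKM in LPS. There LPS 1 was the lowest library and LPS 3 came near to CON 3. Scaled by summed fragments, LPS 3 (1093 of 23825756 fragments) lies above CON 3 (792 of 20469730), so the groups overlap.

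**Figure D4:**
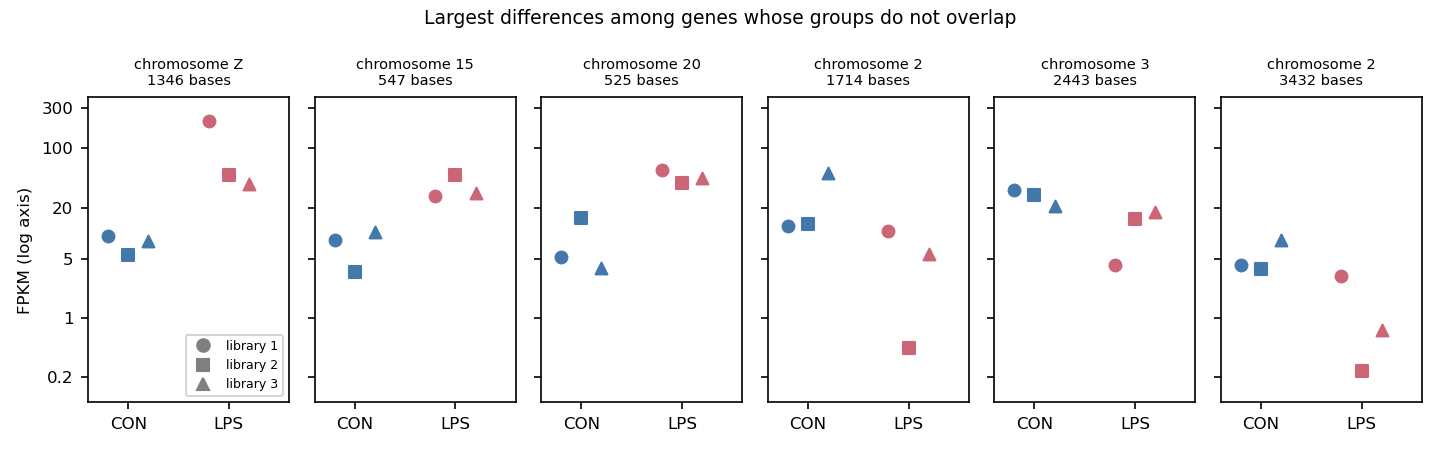
FPKM on a log axis in each CON and LPS library for the 6 genes with the largest log2 fold change without CON 3, 3 in each direction, among the 32 genes over 2-fold apart. Titles give the chromosome and gene length, point shapes the replicate number, and the 3 genes on the left are higher and the 3 on the right lower in LPS.

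Only 1 other pair among the 32 genes lay within 100 kb, and its members overlap on opposite strands of chromosome 3 (107430692 to 107459717 and 107443030 to 107444685). Both were higher in LPS, at log2 fold changes without CON 3 of 1.21 and 1.63. No strand setting is given in the sources used here, so fragments of the 2 models cannot be told apart with certainty.

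Median fold changes differed between genes of different abundance. Genes were grouped by their mean FPKM in the GEN libraries, which do not enter the fold change of LPS against CON. The GEN chicks were also given lipopolysaccharide, so this reference shares a treatment with LPS. The 1525 genes under 2 FPKM had a median log2 fold change of 0.06 in both fits, and the 2216 genes of 2 to 5 FPKM 0.08 with all libraries and 0.06 without CON 3. The 3711 genes of 20 to 100 FPKM had -0.07 and -0.05, and the 693 genes of 100 FPKM or more -0.24 and -0.08. On this scale the medians of the scarcer classes were above 0 in LPS and those of the abundant classes below 0, but the sign of single classes depended on the settings. With at least 1 FPKM required in all LPS and CON libraries, genes under 2 FPKM were at -0.04 with all libraries and 0.04 without CON 3. That filter leaves out the 46 genes that passed through LPS libraries alone and the 8 through CON libraries alone. The classes given above keep them, and their number in each class was not counted. Scaling by summed fragments put genes of 20 to 100 FPKM at 0.11 with all libraries and -0.00 without CON 3, and voom gave 0.11 and -0.00. The lowest class stayed above the highest in both fits under every setting tried other than quantile normalization. Under quantile normalization, which gives every library the same distribution of values, this order turned with all libraries and was gone without CON 3. The medians of the lowest and the highest class were then -0.12 and 0.05 with all libraries and -0.02 and -0.01 without CON 3.

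At an unadjusted p under 0.05 without CON 3, 89 genes of 2 to 5 FPKM were higher (4.02%) and 34 lower (1.53%). Of genes of 100 FPKM or more, 9 were higher (1.30%) and 62 lower (8.95%). Over all genes tested these shares were 2.71% and 3.17%. The lean was also measured library by library. The median log2 difference from the GEN mean, in genes under 2 FPKM minus genes of 100 FPKM or more, was -0.19, -0.10 and -0.57 in CON 1 to 3 and -0.04, -0.00 and 0.01 in LPS 1 to 3. The LPS values were all above the CON values, and CON 3 was the farthest out. As GEN shares the lipopolysaccharide treatment with LPS, the nearness of LPS to 0 was not tested apart from it. The means were -0.29 ± 0.25 and -0.01 ± 0.03 (SD, n = 3 each), with an exact two-sided permutation p of 0.1, the smallest that 3 against 3 allow. Adjusted over the 13 library-level values compared, p was 0.433. This pattern was noticed in the data and then described in them. The library values keep the genes that passed the filter through a single group, 46 through LPS and 8 through CON. They were not recomputed without those genes, so this p cannot separate the lean from the filter.

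**Figure D5:**
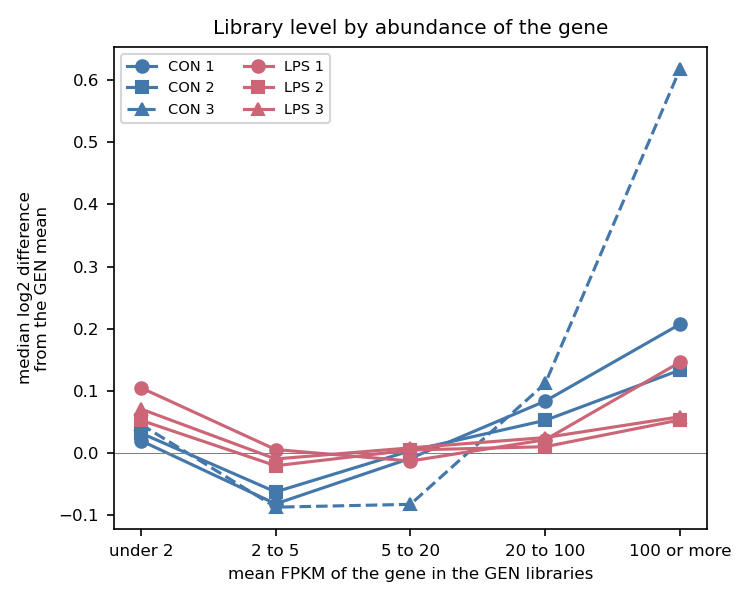
Median difference in log2(FPKM + 1) of each library from the mean of the GEN libraries (vertical axis) for genes grouped by their mean FPKM in GEN (horizontal axis). CON lines run below LPS lines at 2 to 5 FPKM and above them at 20 to 100 FPKM, and CON 3 (dashed) reaches 0.62 in the most abundant genes. Single libraries were not examined under quantile normalization. There the median log2 fold changes of these 2 classes were -0.07 and 0.02 with all libraries, and -0.01 and -0.01 without CON 3.

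The number of genes detected leaned the same way within its error. When each library was scaled down to 20469730 fragments, the genes expected above 0 were 18314, 18798 and 17787 in CON and 18738, 18792 and 18944 in LPS. CON 2 lay within the LPS range, and the exact two-sided permutation p was 0.3 (adjusted 0.488). Of the 25016 genes of the table, 75 had 0 fragments in every CON library and at least 1 in every LPS library. The opposite pattern was found for 11. Without CON 3 these numbers were 117 and 58. The 86 genes found with all libraries are scarce, with a median of 6 fragments over the 3 LPS libraries and 9 over the 3 CON libraries, and only 1 of them was among the 13072 genes tested. The counts of such genes were not brought to equal depth, and the CON libraries hold 66721779 fragments in all and the LPS libraries 72129849. The gene with the most fragments lies on chromosome 1 (62143278 to 62144848), overlaps another gene model, and had 12, 15 and 27 fragments in LPS 1 to 3 and 0 in each CON library.

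Very short genes also leaned higher in LPS. The 444 genes under 300 bases had a median log2 fold change of 0.14 with all libraries and 0.13 without CON 3, where the medians of all genes tested were -0.00 and -0.01. Without CON 3, 37 of them (8.33%) were higher and 13 (2.93%) lower at an unadjusted p under 0.05. Relative to the GEN mean, their median was -0.40, -0.22 and -0.24 in CON 1 to 3 and -0.40, 0.04 and -0.10 in LPS 1 to 3. LPS 1 was as low as CON 1, so the groups overlapped. For this median minus that of genes of 1000 to 4000 bases, the exact two-sided permutation p was 0.3 (adjusted 0.488). Without CON 3 the exact p was 0.4. Short genes that passed the filter through the LPS or the CON libraries alone were kept in these values and not counted. Longer classes stayed within -0.16 to 0.12 with all libraries and within -0.01 to 0.00 without CON 3. The 444 tested genes that the submitters predicted had a median of -0.13 with all libraries and 0.05 without CON 3.

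Chromosomes differed little once CON 3 was left out. Over the 35 chromosomes and scaffolds with at least 20 tested genes, medians of the log2 fold change ran from -0.66 to 0.09 with all libraries and from -0.03 to 0.06 without CON 3. The lowest value with CON 3 belonged to the 27 mitochondrial genes, at -0.66 with it and 0.01 without it. Mitochondrial genes took 1.43%, 1.55% and 3.94% of gene fragments in CON 1 to 3 and 1.54%, 1.78% and 1.52% in LPS 1 to 3. Only CON 3 stood out, and the exact two-sided permutation p was 0.8. Microchromosomes such as 30 and 33, gene-dense small chromosomes of birds, moved from -0.22 and -0.17 with CON 3 to 0.02 and 0.01 without it. On chromosome 16, which carries the chicken major histocompatibility complex, 81 genes had a median of -0.14 with CON 3 and 0.06 without it, with 3 higher (3.70%) and 3 lower (3.70%) at an unadjusted p under 0.05 without CON 3, against 2.71% and 3.17% of all genes.

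The Z chromosome, present in a pair in male birds and singly in females, had a median log2 fold change of 0.09 over 581 genes with all libraries and 0.01 without CON 3. The ratio of the median FPKM of Z genes to that of autosomal genes was 0.811, 0.830 and 0.718 in CON and 0.818, 0.864 and 0.900 in LPS. LPS 1 lay within the CON range, and the exact two-sided permutation p was 0.2 (adjusted 0.433). The female-specific W chromosome has 126 genes in the table. It took only 76, 77 and 91 fragments in CON 1 to 3 and 93, 97 and 93 in LPS 1 to 3. These counts were not adjusted for depth. All LPS counts were above the CON counts, with an exact two-sided permutation p of 0.1 (adjusted 0.433). Both the order and this p belong to the unadjusted counts. Relative to gene fragments, CON 3 (91 of 20469730) was the highest of the 6 libraries, above LPS 2 (97 of 22440811). The groups then overlap. With all 6 at such low counts, the libraries formed 1 class by this measure. Where depth, gene length or CON 3 move with a result above, their part in it was not tested beyond the values given.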

How the data were processed

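Per the labels' protocols, thymus was frozen, its total RNA was isolated with Trizol and TruSeq libraries were built for Illumina sequencing. The submitters' processing notes name CASAVA 1.8, featureCounts 1.5.0-p3 and the build GRCg6a. No source used here names the aligner, annotation release or strand setting. The authors deposited 1 table of FPKM values (a unit read from the values), with 0 columns of other samples. FPKM times gene length fell on whole multiples of 1 step per library (100% of values within 0.01), which gave whole fragments per gene. The authors' scaling total was 1.01 to 1.06 times these in 5 of the 6 libraries and 0.767 times in CON 3.

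A linear model was fitted with limma 3.58.1 (R 4.3.3, prior variance following the mean) to log2(FPKM + 1) of all 9 libraries, or of 8 without CON 3. P-values are two-sided and were adjusted by Benjamini-Hochberg over 13072 genes, with a threshold of 0.05. Fold changes on this scale understate changes of low genes. The fit was first tested on simulated data. The simulated libraries shared the same expected levels apart from the genes set to change, and none was like CON 3. That test therefore cannot show how the fit handles CON 3. The rule for named genes took 2 genes in each direction, as described with them. The 8 gene lists (114 symbols) prepared could not be used without names. The genes, lists and tests were chosen with earlier results of these data known. Libraries of 1 group differed beyond counting error (chi-square per degree of freedom 14.9 to 280.5), so none was merged. Level, length and chromosome classes are described without a test. Figures used Python 3.11.15 and matplotlib 3.10.9.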

Additional observations from a re-analysis of the deposited data

How the results depend on the processing

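The count of called genes stayed at 0 in both fits under most settings. With all libraries, a pseudocount of 0.1 called 1 gene, of 33 bases with 1 to 2 fragments per LPS library. Without CON 3, fitting without a filter called 3, each with at most 6 fragments in any LPS library and at most 2 in CON 3. The first of these, on chromosome 27 (2403703 to 2405760), had 120 and 133 fragments in CON 1 and CON 2 and a limma adjusted p of 0.000925. It did not pass the main filter, which genes in CON 1 and CON 2 alone cannot pass. Leaving out 1 library gave 0 to 1 calls with all libraries, the 1 without CON 2, and 0 without CON 3. At an unadjusted p under 0.05, the main fit with all libraries had 591 of 13072 genes. Without a filter there were 1021 of the 21145 genes then tested, so these counts are of unlike sets. Among the 13072 genes the 591 became 309 with only LPS and CON in the fit and 1727 with library quality weights. Without 1 library they became 325 to 1547. The highest 2, 1547 and 1304, came from dropping CON 2 or CON 1, and the lowest, 325 and 357, from dropping LPS 3 or LPS 2. Without CON 3 the main fit had 769 of 13072 genes, and the fit without a filter 1168 of 21002. Among the 13072 genes the 769 became 1220 with quality weights and 604 to 994 without 1 LPS library. Quality weights gave CON 3 a weight of 0.0470 and a lowest adjusted p of 0.0596. Genes whose groups do not overlap numbered 2257 to 3416 without 1 of the 6 libraries and 4134 to 6486 without 1 of the 5, where fewer libraries must be ordered.

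The median fold change of genes under 2 FPKM minus that of genes at 100 FPKM or more was 0.30 with all libraries and 0.14 without CON 3. Quantile normalization turned it to -0.17 and -0.0034. Without 1 library it was 0.14 to 0.41 and 0.10 to 0.18. These settings were chosen for this value after the data were seen. The log2 fold changes of the 4 named genes kept their sign in all 124 alternative values, and their limma adjusted p stayed above 0.05. Most of these values could not have turned the sign, since the groups do not overlap on the deposited scale. That holds for leaving out libraries, quality weights and the other pseudocount. Changes to the prior variance, the filter or the use of GEN leave the estimate as it is. Only quantile normalization, summed fragments, voom and, without CON 3, the replicate block could have turned it. Only ENSGALG00000010079 moved by over 1.5 times, and it went from -0.32 with all libraries to -0.11 under quantile normalization and -0.14 with summed fragments or voom.

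The labels do not say what replicate numbers mean. Deviations of same-number libraries correlated at 0.10, 0.05 and -0.10, and 1 of 3 CON libraries was closest to its own number. With the replicate block 0 genes were called, with 654 (all libraries) and 1055 (without CON 3) at an unadjusted p under 0.05. Blocking by W chromosome level was not run, since the libraries form 1 class.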
